A study of Drosophila melanogaster with 21 samples.

Results

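Lower reproductive tracts that Drosophila melanogaster females carried 6 h after the end of mating were compared, at the level of RNA, with those of unmated females. The comparison holds every array that the labels place at 6 h (n = 3) and every array that they mark as an unmated control (n = 5), and it covers all probe sets that are not controls. These 8 arrays belong to a series of 21, whose other 13 arrays come from mated females, 6 of them at 0 h, 4 at 3 h and 3 at 24 h. Females of both groups were 3 days old and were held at 23 C, and each array carries the pooled tracts of 12 to 40 females of 1 category. The dissected piece holds the upper uterus, the organs that store sperm and the accessory glands, and unmated females were dissected in between the mated ones. The sources used here do not name the strain of the flies or of their mates. Tests over arrays measure the spread between pools, and the number of arrays limits their precision.

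The lower tract receives the ejaculate, keeps sperm alive in the spermathecae and the seminal receptacle, and moves the egg past the stored sperm. Secretory cells of the spermathecae and accessory glands release proteases and other proteins into the lumen, and the epithelium makes immune effectors. After mating, seminal fluid proteins such as sex peptide change the physiology of the female, ovulation speeds up, and eggs pass through the uterus. An egg carries a large store of maternal RNA, so a dissected tract can hold RNA of an egg as well as of its own cells.

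The values are linear array signals in arbitrary units, tested as log2, and a change is given as the log2 difference of 6 h minus unmated, with its standard error. A single limma model over all 21 arrays gave the p-values, adjusted by the Benjamini-Hochberg method, and "rose" and "fell" stand for an adjusted p below 0.05. The median signal of the 5 unmated arrays lay between 50.4 and 57.7 and that of the 6 h arrays between 35.6 and 50.6. The array 6 h replicate 3 stood apart, with the lowest median of all arrays, and it scored -85.8 on the leading principal component, where 6 h replicate 1 and 2 scored 8.48 and -14.6. When the labels' array numbers are split at each gap above 20, 6 blocks result, a grouping that no label states. Unmated arrays lay in 2 blocks and the 6 h arrays in 3 others, so that block and group cannot be told apart within any block. Block accounted for 94.5% of the variance of the arrays on the leading principal component and group for 23.5%, shares that overlap. The array that shares a block with 6 h replicate 3, 24 h replicate 3, scored -50.4 on it. Control transcripts had a 3' over 5' signal ratio of, in log2, 3.90 ± 2.01 (SD, n = 5) in unmated females and 2.82 ± 0.73 (SD, n = 3) at 6 h.

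At 6 h, 85 of 10844 genes rose (0.784%) and 127 fell (1.17%), which are 94 and 163 of 13966 probe sets. Risen genes included the spermathecal protease Send2, the hormone enzyme jhamt, the amidase PGRP-SC2, Hsp26 and 6 of 38 DNA replication genes. Fallen genes included the poly(A)-binding protein pAbp, 3 of 30 cell surface and guidance genes, 3 of 26 basement membrane genes and 3 of 27 neuronal genes. The median change was 2.23 over the risen genes and -2.40 over the fallen ones, against -0.16 over all genes, and 41.9% of all genes lay above 0. The split depends on the scaling: 140 probe sets rose and 109 fell with quantile normalization, and 242 and 105 with median centring, where the median of all genes was 0.05 and 0.13. Changes are read here against the median of all genes, and in such pooled tissue fewer cells of a type and less RNA per cell cannot be told apart.

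The 6 h arrays lay wholly above the unmated arrays in 82 of the 85 risen genes, where 5.31% of all genes did so. They lay wholly below in 124 of the 127 fallen genes, where 5.95% of all genes did. The calls rest on these same values, so the lack of overlap is largely built into them. Among the risen genes, 6 h replicate 1 was the highest of the 8 arrays in 53, and among the fallen genes 6 h replicate 3 was the lowest in 83. The model was also refitted 8 times, leaving out each of these arrays in turn. Without 6 h replicate 3, 52 probe sets rose and 43 fell, and without 6 h replicate 1, 33 rose and 143 fell. Leaving out unmated replicate 1, 2, 3 or 4 gave 54 to 77 probe sets up and 78 to 101 down. With the block as a term in the model, 3 probe sets rose and 2 fell. Unmated replicate 1, 2 and 3 share their block with no other group. The change in that fit therefore rests on unmated replicate 4 and 5, tied to 6 h through mated arrays at 3 h and 24 h. There 85 of 85 risen and 126 of 127 fallen genes kept their direction, and 67 and 102 still changed at least 2-fold. These genes were called on the same 6 h arrays, so the kept direction is largely built in. The share over all genes is not given here.

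**Figure D1:**
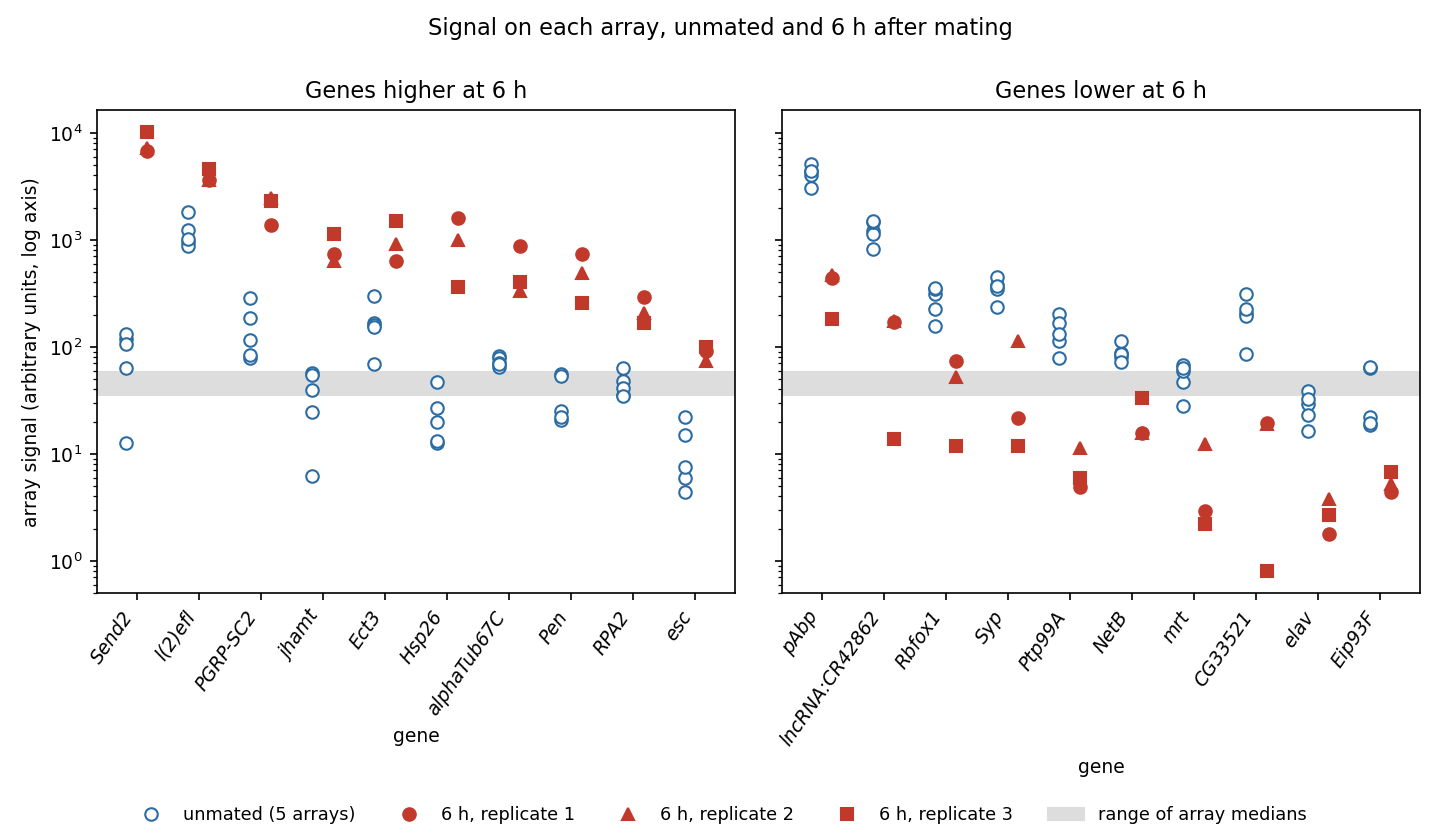
Array signal on a log axis for 10 risen genes (left) and 10 fallen genes (right), with open circles for the 5 unmated arrays, filled marks for the 3 arrays at 6 h, and a grey band for the range of array medians (35.6 to 57.7). In each of these genes the 6 h arrays lie wholly on one side of the unmated arrays, and for several fallen genes they lie below the band.

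Of the genes that passed, Send2 rose most. It is a serine protease made by the secretory cells of the spermathecae. Its signal was 63.5, 119.5, 12.7, 131 and 107 on the unmated arrays and 6797, 7168 and 10118 at 6 h. The 2 groups were far apart, and the change was 6.88 (SE 0.72, adjusted p = 0.000112), or 118-fold. Its signal was 7447 to 13739 at 3 h and 50.9 to 299 at 24 h, so 6 h replicate 3 lay in the range of 3 h, the other 6 h arrays below it, and all 3 above every array at 24 h. Send1, the other protease of this pair, had 8951, 23969, 8368, 9833 and 9557 on the unmated arrays and 3940.2, 5871 and 8794 at 6 h, with a change of -0.92 (SE 0.37, adjusted p = 0.19). Of 8 measured spermathecal secretory genes, 1 rose, and the list median was -0.17. Another protease gene, CG17134, annotated as an aspartyl endopeptidase, had 5.9, 3.5, 3.9, 10.7 and 15.1 on the unmated arrays and 1199.8, 284 and 261 at 6 h, a change of 6.07 (SE 1.03, adjusted p = 0.00593).

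Of 11 juvenile hormone genes 1 rose and 1 fell, and of 14 peptidoglycan recognition and lysozyme genes 1 rose. The juvenile hormone acid methyltransferase jhamt, which acts in the last steps of hormone synthesis, had 24.6, 39.2, 56.6, 54.7 and 6.2 on the unmated arrays and 735, 638 and 1144 at 6 h. Every 6 h array was above every unmated array, and the change was 4.84 (SE 0.59, adjusted p = 0.000441). The signal of jhamt was 81.7 to 212.8 at 0 h, 440.9 to 1435.5 at 3 h and 108.5 to 217.5 at 24 h. JhI-26, a gene first found as inducible by juvenile hormone, fell by 1.19 (SE 0.30, adjusted p = 0.0443), from 231, 246, 221, 289 and 280.0 in unmated females to 126, 95.4 and 113 at 6 h. The median of the juvenile hormone list was -0.53. PGRP-SC2, a secreted amidase that cleaves peptidoglycan and so dampens immune signalling, had 185, 116, 285, 78.7 and 84.2 on the unmated arrays and 1365, 2442 and 2301 at 6 h. Its change was 3.90 (SE 0.43, adjusted p = 0.000118) and 3.99 with the block as a term, where its adjusted p was 0.0176. The median of its list was -0.31 with 5 of 14 genes above 0, and none of 9 measured antimicrobial and Turandot peptide genes passed. Listericin, an antibacterial effector of the JAK/STAT pathway that is not on that list, rose from 71.7, 205.1, 53.3, 50.2 and 61.7 in unmated females to 419.7, 641 and 329 at 6 h with a change of 2.56 (SE 0.51, adjusted p = 0.015).

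Ect3, yin, Pcp, CG11426 and l(2)efl also rose, as single genes. Ect3, a beta-galactosidase, had 167, 299, 161, 152 and 69 on the unmated arrays and 631, 919.7 and 1489.7 at 6 h, with a change of 2.64 (SE 0.43, adjusted p = 0.00489). The oligopeptide transporter yin changed by 2.77 (SE 0.60, adjusted p = 0.0239), the pupal cuticle protein Pcp by 2.57 (SE 0.44, adjusted p = 0.00593) and the lipid phosphate phosphatase CG11426 by 2.97 (SE 0.51, adjusted p = 0.00593). Pcp was the only one of 111 measured cuticle genes to pass, and CG11426 the only one of 7 lipid phosphate phosphatases. The small heat shock protein l(2)efl, a relative of alpha-crystallin, was bright in every array and had 959, 1810.1, 869, 1239 and 1012 in unmated females and 3640.4, 3610.4 and 4592 at 6 h, a change of 1.79 (SE 0.27, adjusted p = 0.00292). Of the genes named so far, the call of yin was lost without 6 h replicate 2 or 3 or unmated replicate 1 or 3 (highest adjusted p 0.0816) and that of JhI-26 without any one of the 8 arrays (highest adjusted p 0.12), while the others passed in all 8 leave-outs.

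Some RNAs known as part of the maternal store of the egg rose. Hsp26, a small heat shock gene that is also transcribed in nurse cells, had 12.5, 26.9, 20.0, 47.2 and 13.2 on the unmated arrays and 1587, 992 and 365 at 6 h, a change of 5.30 (SE 1.08, adjusted p = 0.0175). The germ plasm RNA pgc, which represses transcription in the germ cells of the embryo, had 52.7, 9.3, 28, 38.9 and 27.3 in unmated females and 769.6, 293 and 151 at 6 h, a change of 3.58 (SE 0.81, adjusted p = 0.0279). The bicoid RNA localisation factor swa had 34.8, 7, 13.7, 3.6 and 14.4 in unmated females and 550.1, 224 and 107 at 6 h, a change of 4.40 (SE 0.93, adjusted p = 0.0195). In all 3 genes, 6 h replicate 1 was the highest array and 6 h replicate 3 the lowest of the 6 h arrays, yet still above the unmated ones. The maternal alpha-tubulin alphaTub67C had 81.9, 64.5, 79.4, 70.5 and 69.6 in unmated females and 873, 329.5 and 407 at 6 h, a change of 2.75 (SE 0.48, adjusted p = 0.00661). The importin Pen changed by 3.81 (SE 0.64, adjusted p = 0.00593), the receptor tyrosine kinase tor, which patterns the ends of the embryo, by 2.07 (SE 0.51, adjusted p = 0.0394), and RpS5b, the form of ribosomal protein S5 enriched in the germline, by 4.06 (SE 1.01, adjusted p = 0.0434).

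By list, 2 of 20 measured oocyte axis genes rose (swa and tor, median 0.43), 1 of 22 germ plasm and piRNA genes (pgc, median 0.88) and 1 of 18 genes of egg activation (alphaTub67C, median 0.74), and none fell. Members that did not pass included dhd, the thioredoxin of the oocyte, with 129, 5.4, 23.3, 45.7 and 5.2 on the unmated arrays and 4114, 2819 and 2468 at 6 h (adjusted p = 0.0555). The change was 3.74 for osk, 3.15 for bcd and 3.44 for exu, with adjusted p between 0.0913 and 0.101. On 6 h replicate 1, 2 and 3 the germ plasm list stood at 1.45, 1.35 and -0.33 from the unmated mean and the egg activation list at 1.73, 0.84 and 0.05. Thus 6 h replicate 3 did not share the level of the other 6 h arrays in either list. Within the blocks the medians were 2.24, 1.30 and -0.54 for the germ plasm list and 2.02, 1.21 and -0.34 for the egg activation list.

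Values that touch these genes came from other arrays and markers too. The summed signal of 6 germline markers (vas, nanos, osk, bam, orb and aub) was 95.4 to 204 on the unmated arrays and 339 to 667 at 6 h, with no member passing and bam below the array medians. Outside the comparison, 0 h replicate 6 and 24 h replicate 3 carried more Hsp26, pgc, swa, Pen and alphaTub67C RNA than the other arrays of their time, for example 295 and 277 for Hsp26. The chorion gene Cp36, made by follicle cells late in egg formation, had 16070 on 0 h replicate 6 but 111, 223 and 110.4 at 6 h, against 165, 259.9, 124, 125 and 241 on the unmated arrays. Of 17 measured eggshell genes none passed, and the summed signal of 10 follicle cell markers was 731 to 1436 in unmated females and 756 to 934 at 6 h. The part that germline RNA in the dissected tissue plays in the rise of these genes was not tested.

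**Figure D2:**
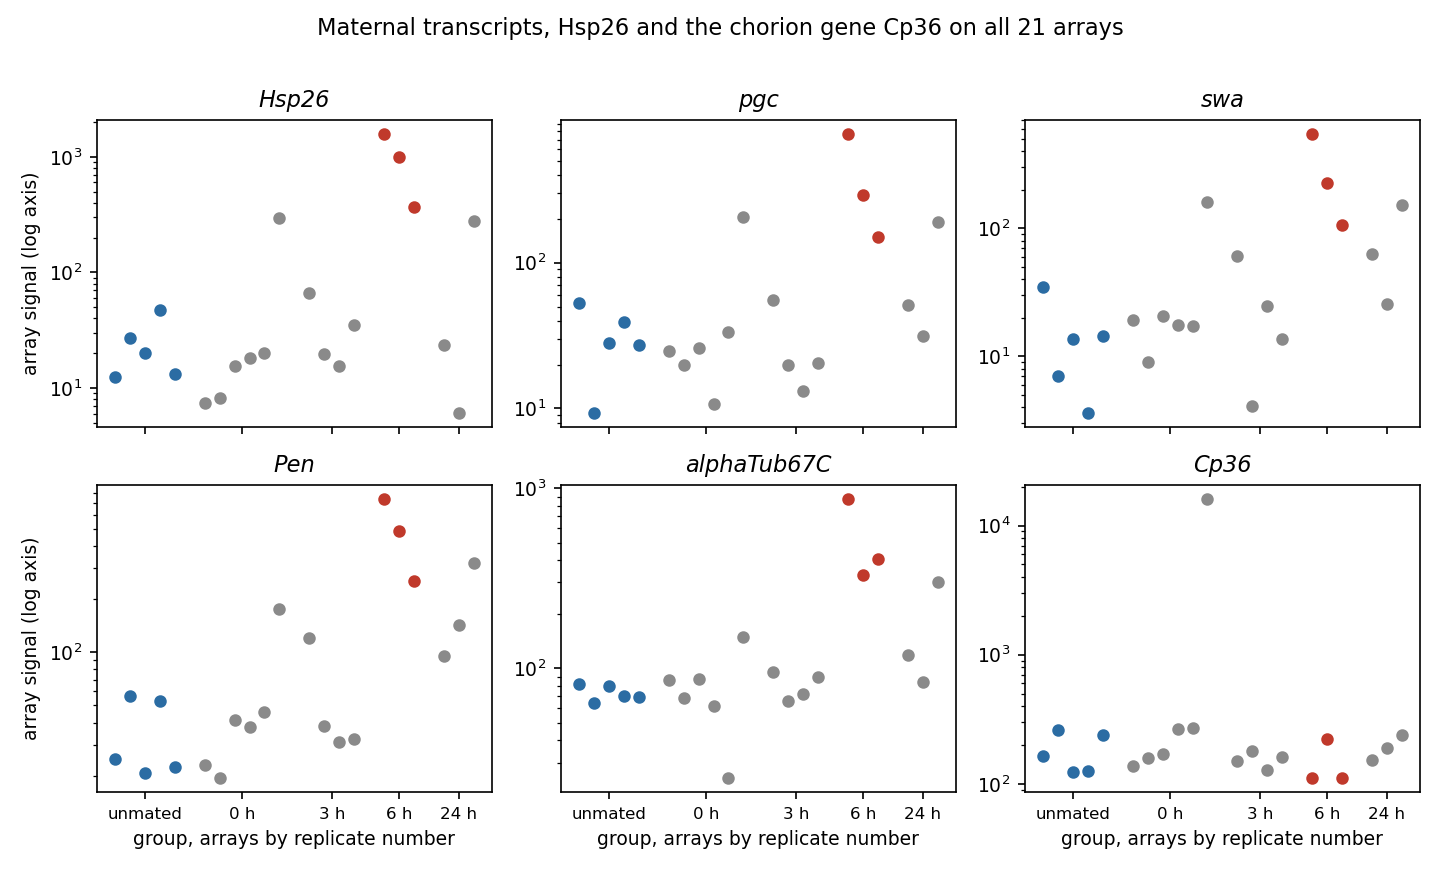
Array signal on log axes for Hsp26, pgc, swa, Pen, alphaTub67C and Cp36 on all 21 arrays, grouped by time after mating and ordered by replicate number, with unmated arrays in blue and 6 h arrays in red. The 6 h arrays are the highest in Hsp26, single arrays at 0 h and 24 h come near or into the 6 h range in the first 5 genes, and Cp36 is high on 1 array at 0 h only.

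DNA replication was the list with the most risen members. Of 38 measured DNA replication genes 6 rose, none fell, 35 lay above 0 and the median was 1.26. RPA2, a subunit of the single-strand binding protein RPA, had 47.4, 35.6, 41.6, 63.1 and 34.4 on the unmated arrays and 292, 207 and 169 at 6 h, a change of 2.32 (SE 0.29, adjusted p = 0.000448). The sliding clamp PCNA had 81.4, 119, 65.3, 86.9 and 82.8 in unmated females and 575, 354 and 315 at 6 h, a change of 2.23 (SE 0.45, adjusted p = 0.0174). The helicase subunit Mcm2 changed by 3.42 (SE 0.77, adjusted p = 0.0279), the origin recognition subunit Orc4 by 2.04 (SE 0.49, adjusted p = 0.0353), dUTPase, which keeps uracil out of DNA, by 2.24 (SE 0.50, adjusted p = 0.026) and RPA3 by 1.55 (SE 0.37, adjusted p = 0.0342). Members that did not pass included Mcm3 (2.66, adjusted p = 0.0798), Mcm5 (2.11, adjusted p = 0.0679) and E2f1 (-1.28, adjusted p = 0.29). On 6 h replicate 1, 2 and 3 the list stood at 1.73, 1.30 and 0.81 from the unmated mean, against -0.18 to 0.46 on the unmated arrays. It stood at -0.05 to 0.54 at 0 h, highest on 0 h replicate 6, and at -0.04 to 0.41 at 3 h. On 24 h replicate 1, 2 and 3 it was 0.44, 0.46 and 0.95.

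Of 33 measured mitosis genes 1 rose, the central spindle protein feo (3.93, SE 0.79, adjusted p = 0.0164), while 30 lay above 0 and the median was 1.47. The cyclin CycB had 239, 202, 107, 109.9 and 184 on the unmated arrays and 1309.6, 1263 and 684 at 6 h and did not pass (adjusted p = 0.0555). With the block as a term, the median was 0.90 over the replication genes and 1.00 over the mitosis genes. Against the other mated arrays of its own block, 6 h replicate 1, 2 and 3 gave medians of 1.65, 1.04 and -0.08 for replication and 2.00, 1.60 and -0.52 for mitosis. The third block did not show either list as higher at 6 h: 24 h replicate 3, its other array, stood at 0.95 and 0.82 from the unmated mean, and 6 h replicate 3 at 0.81 and 0.67. The mitosis list also stood at 0.47 and 1.29 on 24 h replicate 1 and 2 and at 0.92 on 0 h replicate 6. On the other 0 h arrays and the 3 h arrays it was -0.62 to 0.34. The arrays 0 h replicate 6 and 24 h replicate 3 are those named above for more Hsp26 and pgc RNA, and a link to these lists was not tested. The Polycomb subunit esc and the histone chaperone asf1 rose among 20 measured chromatin regulators. The signal of esc was 5.9, 22, 4.4, 7.6 and 15.1 on the unmated arrays and 92, 73.9 and 99.2 at 6 h, a change of 3.25 (SE 0.54, adjusted p = 0.0059), and that of asf1 changed by 1.64 (SE 0.30, adjusted p = 0.00972).

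The leave-outs weighed differently on these genes. RPA2, esc, asf1, alphaTub67C and Pen passed in all 8. Without 6 h replicate 1 the calls of Hsp26, swa and PCNA were lost (adjusted p = 0.0619, 0.077 and 0.0642), and feo failed without 6 h replicate 1 or 2 (highest adjusted p 0.0699). The call of pgc did not survive removal of 6 h replicate 1 or 2 or unmated replicate 2 or 3 (highest adjusted p 0.105), nor did that of dUTPase survive removal of 6 h replicate 1 or 3 or unmated replicate 4 (highest adjusted p 0.0943). Mcm2 failed without unmated replicate 1 or any 6 h array (highest adjusted p 0.0951). Removal of any one 6 h array or unmated replicate 2, 3 or 4 ended the call of Orc4 (highest adjusted p 0.126), and removal of any array but unmated replicate 5 that of RPA3 (highest adjusted p 0.119). The call of RpS5b depended on each of the 8 arrays (highest adjusted p 0.142). The call of tor depended on 6 h replicate 1 and 2 and on each unmated array but replicate 2 (highest adjusted p 0.158).

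The box C/D snoRNP proteins Nop56 and Fib rose among 15 measured ribosome biogenesis genes, with changes of 1.30 (SE 0.24, adjusted p = 0.00898) and 1.46 (SE 0.34, adjusted p = 0.0308). The signal of Nop56 was 191, 239, 206, 229 and 271 on the unmated arrays and 639, 515 and 523 at 6 h. All 64 measured mitochondrial ribosomal protein genes lay above 0, with a median of 0.83, and 1 of them, mRpL4, passed (2.84, SE 0.66, adjusted p = 0.0305). On 6 h replicate 1, 2 and 3 this list stood at 0.96, 0.43 and 1.09 from the unmated mean, against -0.23 to 0.25 on the unmated arrays, and its median was 0.21 with the block as a term. The list stood at 0.09 to 0.54 at 0 h, 0.03 to 0.40 at 3 h and 0.22 to 0.69 at 24 h, so 6 h replicate 2 lay within the range of other mated arrays. Of 28 proteasome genes none passed (median 0.41, with 1.18 (SE 0.31, adjusted p = 0.0538) for Prosalpha4), nor did any of 65 oxidative phosphorylation genes (median 0.46, and -0.21 with the block). The median of 31 cytosolic ribosomal protein genes was 0.15, and RpS5b was the member that passed.

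The chaperonin subunits CCT1 and CCT3 also rose, by 1.42 (SE 0.33) and 1.22 (SE 0.31), as did the prefoldin subunit mgr, by 1.59 (SE 0.30), and the tubulin cofactor Tbca, by 1.26 (SE 0.28). The geometric mean signal of CCT1 was 243 in unmated females, 505 at 3 h and 650 at 6 h, and that of CCT3 was 148, 276 and 344. The 4 genes were chosen after their values were seen, and other members of their families are not given here. Their adjusted p lay between 0.0109 and 0.0489. All 4 failed without 6 h replicate 3, and CCT1, CCT3 and Tbca also without 6 h replicate 1 and at least 1 unmated array (highest adjusted p 0.0521 for mgr and 0.209 for CCT3). On the list of 25 measured nuclear pore genes Nup37 rose (2.50, SE 0.45, adjusted p = 0.00898) and Nup153 fell (-2.84, SE 0.69, adjusted p = 0.0376). Aladin, a nuclear pore gene that is not on that list, rose by 2.41 (SE 0.50, adjusted p = 0.0184) and failed without 6 h replicate 3. The small heat shock gene Hsp27 changed by 2.03 (SE 0.46, adjusted p = 0.0288), which with Hsp26 and l(2)efl made 3 risen members of 13 measured heat shock and chaperone genes. Hsc70-4, the main Hsp70 cognate chaperone, had 3159, 6907, 3413, 4519.6 and 3777 on the unmated arrays and 3634, 3425 and 3238 at 6 h (adjusted p = 0.633). In this group Nop56 and Nup37 passed in all 8 leave-outs. Removal of 6 h replicate 1 or 3 or unmated replicate 2, 3 or 4 ended the call of Fib (highest adjusted p 0.167), and removal of any 6 h array or unmated replicate 2, 3 or 5 that of mRpL4 (highest adjusted p 0.15). Hsp27 failed without 6 h replicate 1 or unmated replicate 1, 3 or 4 (highest adjusted p 0.117), and Nup153 without 6 h replicate 3 or any unmated array but replicate 2 (highest adjusted p 0.188).

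**Figure D3:**
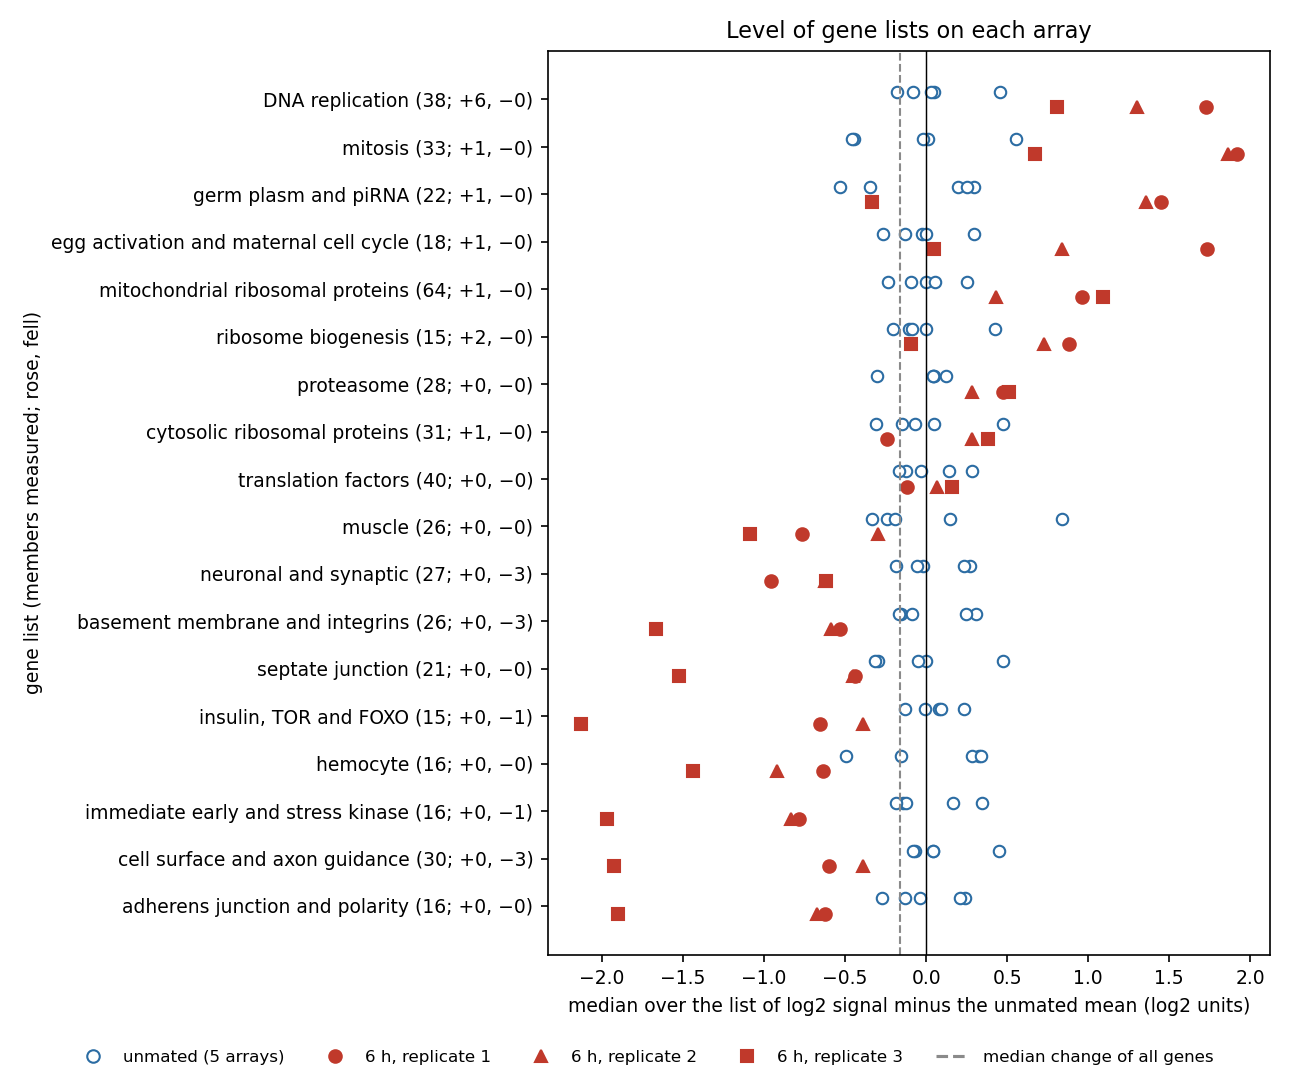
Median over each of 18 gene lists of the log2 signal minus the unmated mean, for the 5 unmated arrays (open circles) and the 3 arrays at 6 h (filled marks), with the number of measured members, risen and fallen beside each name and a dashed line at the median change of all genes (-0.16). The replication and mitosis lists lie above every unmated array on all 3 arrays at 6 h, and several lists near the bottom lie lowest on 6 h replicate 3.

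Of 40 measured translation factor genes none passed and the median was 0.01, with -2.30 (SE 0.66, adjusted p = 0.0755) for eIF4G1. Single genes of RNA binding and decay fell, which belong to no list here. The cytoplasmic poly(A)-binding protein pAbp had 4409.7, 3071, 5125, 4011 and 4374 on the unmated arrays and 442, 469.8 and 182 at 6 h. The groups did not overlap, 6 h replicate 3 was the lowest, and the change was -3.63 (SE 0.61, adjusted p = 0.0059). The signal of pAbp was also below every unmated array at 0 h, with 411.3 to 1973.6. It was 1967.5 to 4195.4 at 3 h and 219.4 to 2678.6 at 24 h. A second probe set of pAbp had a difference of -2.46 and did not pass. Of 55 other probe sets of the fallen genes 45 lay in the same direction and 2 passed, and of 2 other probe sets of the risen genes 0 lay in the same direction. Paip2, which binds pAbp and lowers translation, had 745, 192, 708, 153 and 137 in unmated females and 30.1, 16.6 and 35.5 at 6 h, a change of -3.49 (SE 0.64, adjusted p = 0.00898). The deadenylase subunit PAN3 changed by -3.65 (SE 0.70, adjusted p = 0.0117), the RNA-binding protein Syp by -3.51 (SE 0.72, adjusted p = 0.0182) and the splicing factor Rbfox1 by -2.91 (SE 0.48, adjusted p = 0.00552).

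Of 30 measured cell surface and guidance genes 3 fell. The receptor phosphatase Ptp99A had 78.8, 202, 113, 168 and 133 on the unmated arrays and 4.9, 11.4 and 5.9 at 6 h, a change of -4.26 (SE 0.67, adjusted p = 0.00422), but 3 other probe sets of the gene had differences of 0.92, -0.88 and -1.44. The guidance cue NetB had 87.5, 114, 80.0, 86.5 and 71.7 in unmated females and 15.6, 15.5 and 33 at 6 h, a change of -2.12 (SE 0.34, adjusted p = 0.00489), and the receptor phosphatase Ptp52F changed by -1.44 (SE 0.31, adjusted p = 0.0245). The list stood at -0.60, -0.39 and -1.92 from the unmated mean on 6 h replicate 1, 2 and 3. The atypical cadherin kug changed by -3.44 (SE 0.62, adjusted p = 0.00825) and the clathrin adaptor lap by -3.18 (SE 0.58, adjusted p = 0.00891).

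Of 26 measured basement membrane and integrin genes 3 fell: Sdc, the heparan sulphate proteoglycan syndecan, trol, the basement membrane perlecan, and Mp, a collagen of the multiplexin class. Sdc had 1237, 504, 1096, 783 and 713 on the unmated arrays and 201, 281 and 108 at 6 h, a change of -2.18 (SE 0.42, adjusted p = 0.0122). The change was -2.05 (SE 0.46) for trol and -2.84 (SE 0.61) for Mp, and the list median was -0.76. None of 16 adherens junction and polarity genes passed, though their median was -1.28, and none of 21 septate junction genes (median -0.80). The junction and polarity list stood at -0.63, -0.68 and -1.90 on 6 h replicate 1, 2 and 3 and at -1.14 on 24 h replicate 3, the other array of its block. Its median was -0.58 without 6 h replicate 3 and -0.80 with the block as a term. In this set, crb, which fixes the apical membrane, had 131, 232, 150.4, 198 and 157 on the unmated arrays and 119, 119 and 2.8 at 6 h, so that 1 array carried most of the difference.

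Of the signalling lists, 1 of 17 BMP and activin genes, 1 of 16 Notch genes, 2 of 10 Hippo genes and 1 of 15 insulin and TOR genes fell. None passed of 21 EGF and FGF receptor genes, 20 Toll and Imd genes, 10 Hedgehog genes, 8 JAK/STAT genes and 4 Wnt genes. Those that fell were the activin-type ligand myo (-2.85, SE 0.51, adjusted p = 0.00765), the Notch-pathway protease kuz (-2.61, SE 0.53, adjusted p = 0.0175), the Hippo-pathway members kibra (-2.27, SE 0.54, adjusted p = 0.034) and ex (-3.53, SE 0.85, adjusted p = 0.0372), and REPTOR, a transcription factor held back by TORC1 (-3.82, SE 0.79, adjusted p = 0.0182). The ecdysone response factor Eip93F had 63.5, 18.5, 65.1, 22.1 and 19.5 on the unmated arrays and 4.4, 5.2 and 6.7 at 6 h, a change of -2.57 (SE 0.46, adjusted p = 0.00765). Cyp18a1, which breaks down ecdysteroids, had 359, 174, 314, 454 and 406 in unmated females and 96.5, 84.4 and 71.9 at 6 h, a change of -1.96 (SE 0.40, adjusted p = 0.0174). These were 2 of 27 measured ecdysone genes (median -0.66), and Cyp18a1 was the only one of 83 measured cytochrome P450 genes to pass.

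The repressor hry had 1621, 1225, 1548, 1131 and 893 on the unmated arrays and 335, 739.5 and 109.8 at 6 h, a change of -2.06 (SE 0.49, adjusted p = 0.0342), and was the 1 gene that passed of 16 immediate early and stress kinase genes. That list stood at -0.79, -0.83 and -1.97 from the unmated mean on 6 h replicate 1, 2 and 3. The homeodomain protein en, which marks posterior identity, changed by -3.16 (SE 0.60, adjusted p = 0.0111) and was the 1 of 16 sex determination and tract identity genes to pass. The female- and male-specific regulator dsx had 225, 341, 273, 482 and 506 in unmated females and 177, 181 and 4 at 6 h (adjusted p = 0.111), with 6 h replicate 3 far below the rest. The clock gene Pdp1 changed by -2.27 (SE 0.56, adjusted p = 0.0386), the stress sensor Atf6 of the endoplasmic reticulum by -2.40 (SE 0.61, adjusted p = 0.0452) and the HLH inhibitor emc by -2.23 (SE 0.54, adjusted p = 0.0368).

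Of 27 measured neuronal and synaptic genes 3 fell, the RNA-binding protein elav (-3.34, SE 0.64, adjusted p = 0.0111), the vesicle protein Syn (-3.72, SE 0.77, adjusted p = 0.0184) and the synaptobrevin nSyb (-2.40, SE 0.59, adjusted p = 0.0384), and the list median was -0.56. The signal of elav was 38.8, 29.1, 32.5, 16.2 and 22.9 on the unmated arrays and 1.8, 3.8 and 2.7 at 6 h, below the array median on every array of both groups. The same held for Syn, brp, para and cac, and so for 5 of the 6 neuronal markers. The size of the falls of elav and Syn is therefore uncertain. The summed signal of 6 neuronal markers was 96.3 to 136.6 in unmated females, 30.9 to 52.5 at 6 h, 22.4 to 77.2 at 0 h and 35.8 to 114 at 3 h. The summed signal of 8 hemocyte markers was 1722 to 3123 in unmated females and 1342 to 1859 at 6 h with none passing, and the sums of 7 muscle, 7 fat body and 6 male accessory gland markers overlapped between the groups. Of the hemocyte genes, the receptor eater had a difference of -2.72 (SE 0.71, adjusted p = 0.0555) and did not pass.

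Size and call of many falls rest on 1 array or on dim signal. The geometric mean signal at 6 h was above the highest array median in 33 of the 127 fallen genes, and its median over them was 22.9. With 16 added to each signal before the log, 118 of the 127 and 85 of the 85 risen genes still passed, and their median changes were -1.60 and 1.70. Of the genes named above as fallen, pAbp, Paip2, Rbfox1, Ptp99A, NetB, kug, Eip93F and elav passed in all 8 leave-outs. Without 6 h replicate 3 the calls of PAN3, lap, Sdc, Mp, myo, kuz, Cyp18a1 and en were lost, with adjusted p from 0.0521 to 0.117. Syp failed without 6 h replicate 1 or 3 (highest adjusted p 0.108), REPTOR without 6 h replicate 2 or 3 (highest adjusted p 0.107) and Syn without 6 h replicate 1 or 2 (highest adjusted p 0.0605). Ptp52F and trol each failed without 6 h replicate 1 or 3 or unmated replicate 1 or 3 (highest adjusted p 0.129 and 0.113). The calls of kibra, ex, hry, Pdp1, Atf6, emc and nSyb were each lost in 5 to 7 of the 8 leave-outs, in each case without 6 h replicate 3 and without unmated replicate 2 and 3 among others, with highest adjusted p 0.204, 0.159, 0.222, 0.235, 0.249, 0.205 and 0.112.

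A further set of bright or strongly changed genes has no clear role in this tissue. The long non-coding RNA lncRNA:CR42862 had 819, 1201, 1135, 1473 and 1488 on the unmated arrays and 170.1, 173 and 13.8 at 6 h, a change of -4.01 (SE 0.98, adjusted p = 0.0382), and its call was lost without 6 h replicate 3 or any one unmated array (highest adjusted p 0.243). CG33521 had 85.3, 308, 205.1, 195 and 227 in unmated females and 19.4, 19.1 and 0.8 at 6 h, a change of -4.82 (SE 0.86, adjusted p = 0.00765). All 3 signals at 6 h lay below every array median, so the size is uncertain: the change was -2.90 with 16 added to each signal and -3.29 without 6 h replicate 3. CG6770 had 7301, 11840.0, 6739, 8859.6 and 9294 in unmated females and 3935, 2859.7 and 769 at 6 h, a change of -2.07 (SE 0.46, adjusted p = 0.026) that was lost without 6 h replicate 3 or unmated replicate 2 (highest adjusted p 0.161). Among risen genes without a known role, CG8180 had 4.7, 11.7, 5.6, 6.1 and 9.8 on the unmated arrays and 159, 142 and 29.8 at 6 h, a change of 3.62 (SE 0.52, adjusted p = 0.00168), and CG14687 changed by 2.21 (SE 0.32, adjusted p = 0.0017). CG14036 had 15.2, 25.3, 14.4, 28.3 and 15.1 in unmated females and 1069, 532 and 270.3 at 6 h, a change of 4.83 (SE 1.01, adjusted p = 0.0189) that did not pass without 6 h replicate 1 (adjusted p = 0.0699).

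Levels at 6 h were also set against the mean of the other mated times, which asks what sets 6 h apart within the time course. In this contrast 18 genes were higher (0.166%) and 13 lower (0.12%), from 20 and 15 probe sets. Ect3 had 85.2 to 163 at 0 h, 80.1 to 162 at 3 h and 53.9 to 118 at 24 h, below all 3 arrays at 6 h, and its difference was 3.20 (SE 0.38, adjusted p = 0.000728). The difference was 3.67 (SE 0.46, adjusted p = 0.00087) for CG8180 and 3.58 (SE 0.48, adjusted p = 0.00169) for esc. The signal of esc did not exceed 17.6 on any other mated array and was at least 73.9 at 6 h. Send2 differed by 3.42 (SE 0.64, adjusted p = 0.0268) and PGRP-SC2 by 2.47 (SE 0.38, adjusted p = 0.00695), with both above every unmated array at 3 h as well, where PGRP-SC2 had 828.8 to 1939.

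Other genes above the mean of the mated times included Hsp26, Phf7, a histone reader of the germline, Pen and fs(1)N, which acts in the eggshell. Their differences ranged from 2.73 for Pen to 4.90 for Hsp26. Genes below it included CG10553 (-2.45, SE 0.42, adjusted p = 0.0188), mrt (-2.67, SE 0.50, adjusted p = 0.0268), CG14253 (-2.61, SE 0.46, adjusted p = 0.0237), Ptp99A, lap, CG3961, Rbfox1 (-2.09, SE 0.42, adjusted p = 0.0434) and CG30460. NetB had 35.1 to 84.1 at 0 h, 39.5 to 65.8 at 3 h and 74.4 to 78.2 at 24 h, and its difference was -1.56 (SE 0.30, adjusted p = 0.0343). Without 24 h replicate 3, 66 probe sets were higher and 99 lower, without 0 h replicate 6 the counts were 41 and 21, without 6 h replicate 1 they were 7 and 33, without 6 h replicate 2 they were 4 and 8, and without 6 h replicate 3 they were 19 and 8.

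**Figure D4:**
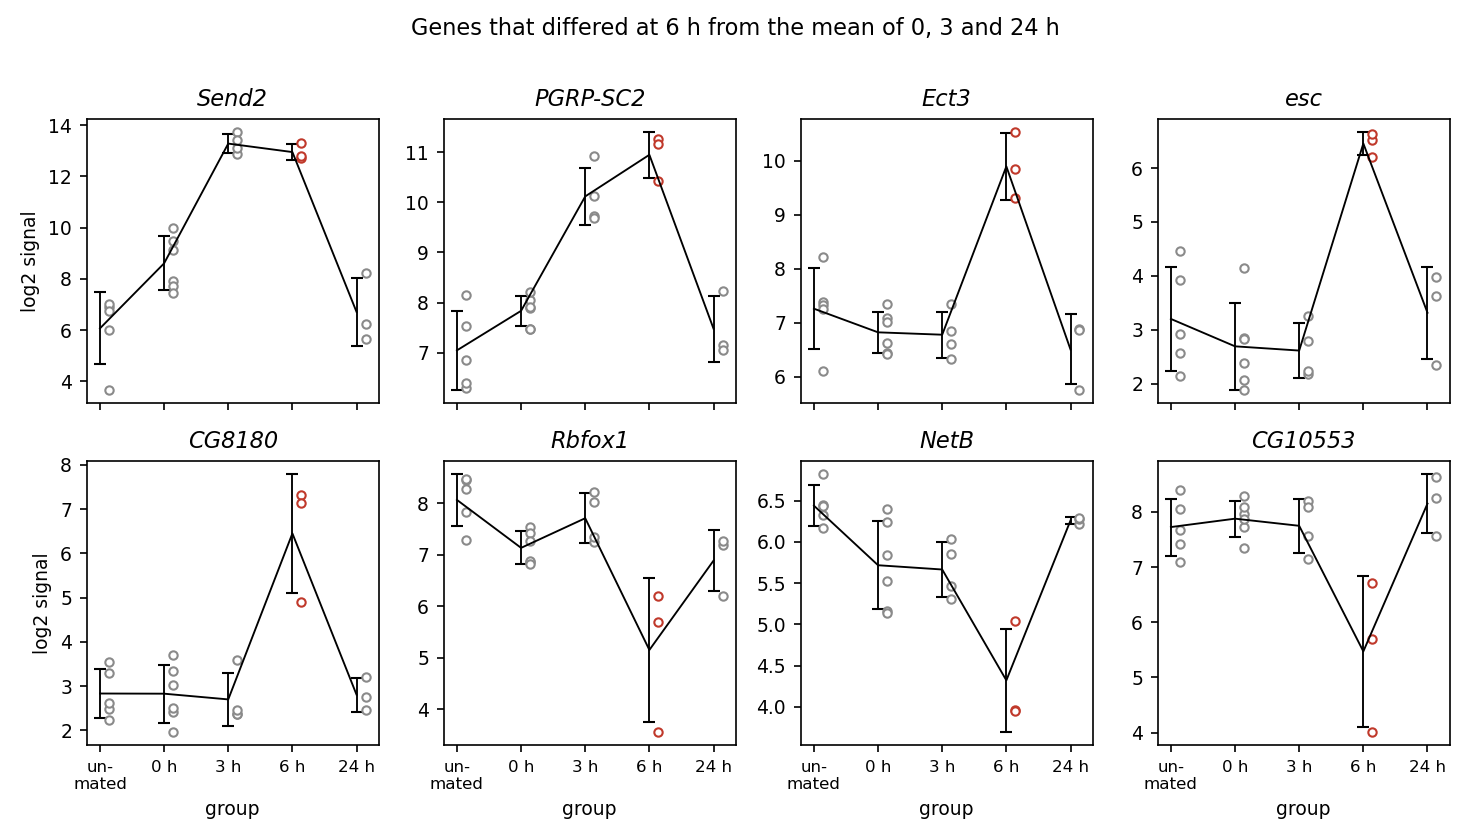
Log2 signal of 8 genes that differed at 6 h from the mean of 0, 3 and 24 h, as the group mean ± SD (black) and single arrays (open circles, those at 6 h in red). Send2 and PGRP-SC2 are high at 3 h and 6 h, Ect3, esc and CG8180 at 6 h, and Rbfox1, NetB and CG10553 are lowest at 6 h.

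This contrast can be followed only in part within blocks. Each 6 h array shares its block with other mated arrays: 3 for 6 h replicate 1, 5 for replicate 2 and 1 for replicate 3. Their times differ: 0 h and 24 h for replicate 1, 0 h and 3 h for replicate 2, and 24 h for replicate 3. The 6 h array minus the mean of the other mated arrays of its block was 2.20, 3.23 and 3.67 for Ect3, 4.00, 3.21 and 2.66 for esc and 2.94, 2.74 and 2.93 for PGRP-SC2 on replicate 1, 2 and 3. For PGRP-SC2, the 3 h array in the block of 6 h replicate 2 had 1939, against 2442 on 6 h replicate 2. It was 5.04, 3.91 and 1.68 for CG8180 and -0.80, -1.76 and -2.64 for Rbfox1. For Hsp26 it was 7.78, 5.02 and 0.40, and for pgc 4.95, 3.28 and -0.34, so the third block, which holds 24 h replicate 3, gave values near 0 for these 2 genes. Over the genes called against unmated females, 68 of the 85 risen and 109 of the 127 fallen lay in the same direction within all 3 blocks. These genes were called on the same 6 h arrays, so the counts are no independent check, and the share over all genes is not given here. With the block as a term, 8 probe sets were higher than the mean of the other mated times and 18 lower, of which 5 and 6 also passed without it. Genes with a single symbol that passed both ways were Ect3, esc, CG8180, PGRP-SC2 and CG32544 above, and Rbfox1, CG10553, CG3961, Fer2 and sgl below.

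For 6 h against unmated females the block term leaves few calls, and only unmated replicate 4 and 5 then set the unmated level. PGRP-SC2 (3.99, adjusted p = 0.0176) and Ugt303B1 (-4.60, adjusted p = 0.0387) were the genes with a single symbol that passed with and without it, although Ugt303B1, a glycosyltransferase, lay below the array medians on all arrays, with 7.3, 8.2, 10.8, 31.4 and 19.6 in unmated females and 2.9, 2.3 and 2.5 at 6 h, and lost its call without the block when any 6 h array or unmated replicate 4 was left out (highest adjusted p 0.0992). CG1620 and Cmtr1, an RNA cap methyltransferase, passed only with the block term (3.75 and 3.73). Without it they differed by 1.27 (SE 0.53, adjusted p = 0.214) and 1.08 (SE 0.55, adjusted p = 0.316), which did not pass. Both were lowest on unmated replicate 4 and 5. CG1620 had 63.7, 88.5, 91.2, 19.9 and 16.7 in unmated females and 126, 99.7 and 97.3 at 6 h. Cmtr1 was dim, with 6.8, 12.4, 7.3, 4.9 and 3.1 in unmated females and 10.0, 17.8 and 12.9 at 6 h. The change with the block was 7.16 for Send2 (adjusted p = 0.0791), 6.10 for jhamt (adjusted p = 0.0587), 2.06 for RPA2 (adjusted p = 0.215), -2.41 for Rbfox1 (adjusted p = 0.161) and -1.76 for pAbp (adjusted p = 0.399). The median over the called genes was 1.91 for the risen and -1.71 for the fallen ones.

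**Figure D5:**
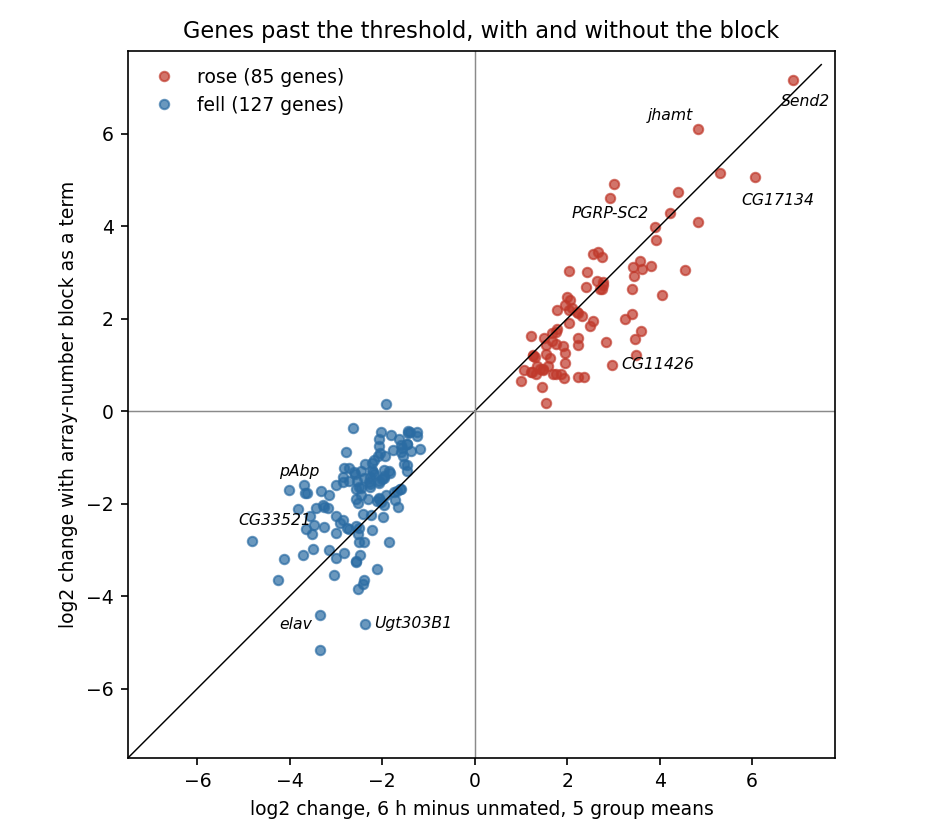
Log2 change of the 85 risen and 127 fallen genes in the model of 5 group means (horizontal axis) against the change with the array-number block as a further term (vertical axis), with a line of equal values. All risen genes and all fallen genes but 1 keep their sign, and most fallen genes lie closer to 0 with the block. The genes were called in the model of the horizontal axis and both fits use the same 6 h arrays, so the kept sign is no independent check.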

How the data were processed

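RNA of pooled lower reproductive tracts was hybridised to 1-colour Drosophila arrays, 1 pool for each of 21 arrays. The deposited table holds 1 intensity for each of 14010 probe sets and array. Per the submitters' processing notes RMA was used (no version is stated there), yet the deposited intensity values are linear, differ in their quartiles between arrays and share a trimmed mean after removal of 2% at each end, which is not the form of RMA output. The sources used here do not say how they were scaled, and the table used holds no detection call, so low signals were kept as given.

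The 44 control probe sets were left out and the other 13966 were tested as log2 of the deposited intensity, with no pseudocount and no further scaling, in limma 3.58.1 under R 4.3.3 with a mean for each of 5 groups over all 21 arrays. The tests were 2-sided, and p-values were adjusted by the Benjamini-Hochberg method over all probe sets. Of the probe sets, 12443 carried 1 gene symbol in the platform annotation, 327 several and 1196 none, and 12394 of the single symbols matched RefSeq. Where a gene had several probe sets, the brightest on average stands for it, which left 10844 genes. Arrays of 1 group shared at most 0.507% identical values. The scripts were tested on simulated data.

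Genes named by rule are the 15 highest and 15 lowest changes that passed and the 12 smallest p-values. Passing members of 67 gene lists (or the 2 smallest p-values of a list with none) and genes that passed with the block are also named by rule. So are the 10 highest and 10 lowest changes among genes brighter than every array median in both groups. For the contrast with the other mated times the 8 highest and 8 lowest are named. Other genes were named outside these rules with their values known. Among them are dhd, exu, Mcm3, Mcm5, E2f1, crb, dsx and the main Hsp70 cognate, none of which passed, and CCT1, CCT3, mgr and Tbca. Near misses such as dhd were therefore not picked by rule. The lists and their members were chosen with earlier results of these data known, so lists are given as counts and medians with no test. Alternatives changed the scaling, the filter on dim probe sets, the offset before the log, the arrays in the model, the block term, the variance model and the 3' to 5' covariate, and left out each array.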

Additional observations from a re-analysis of the deposited data

Results flagged for a closer look

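In 6 named genes 1 of the 5 unmated arrays lay apart from the other 4, with a gap to its nearest neighbour of more than 0.71 of the whole range, a limit that chance passes in about 1 of 20 groups. There were 86 named calls against unmated females, so flags can arise at this rate by chance. The 6 are given as values to check only. Unmated replicate 5 had 61.2 for HipHop, a protein of the telomere cap, against 8.9 to 13.0 on the other arrays (0.803 of the range), and 8.6 for Syn against 21.0 to 26.1 (0.804). Unmated replicate 2 had 205.1 for Listericin against 50.2 to 71.7 (0.747), 283.0 for Mp against 59.3 to 91.9 (0.72) and 14.9 for tor against 7.7 to 8.5 (0.85). Unmated replicate 4 had 32.2 for Phf7 against 10.2 to 13.0 (0.789).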

How the results depend on the processing

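Of 86 named calls against unmated females, 86 passed with 1 probe set per gene or a variance trend, 84 with 16 added to the signal, 83 with quantile normalization, 81 with median centring, 80 with adjustment for the 3' over 5' ratio, 72 with array weights and 61 of the 61 tested without the dimmer probe sets. With the last block left out 54 passed, with a random block 39, with a model of the compared groups alone 29 and with the block as a fixed term 2. None changed direction in these settings. Counts of probe sets above and below unmated, 94 and 163 as reported, became 242 and 105 with median centring, 176 and 251 without the dimmer probe sets, 248 and 259 with 16 added, 32 and 28 with the compared groups alone, 3 and 2 with a fixed block, 24 and 41 with a random block and 174 and 253 with a variance trend. The higher count was 154 with the 3' to 5' covariate, and the lower count was 67 without the last block. Leaving out single arrays gave 33 to 113 above and 43 to 184 below. Against the other mated times, 20 and 15 as reported, the higher count was 37 with median centring, 75 with 16 added, 7 with the compared groups alone, 8 with a fixed block, 45 with a random block and 38 without the last block. The lower count was 33 without the dimmer probe sets, 26 with 16 added, 7 with the compared groups alone, 60 with a random block, 31 with a variance trend and 25 with array weights. Leaving out single arrays gave 4 to 66 above and 8 to 99 below. The cause of these shifts was not tested. No paired analysis was possible because the replicate numbers only count arrays within a group and no label ties them to a shared animal, batch or day. With the fixed block 12 of 67 list medians changed sign. The mean signal at 6 h was above the highest array median in 33 of the 127 fallen genes, and the size of the other falls is uncertain.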
